A study of Homo sapiens with 20 samples.

Results

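The 26 genes described here make cholesterol (17 genes), carry and regulate the SREBP sterol sensor (5 genes, with a sterol carrier) or belong to the LXR export pathway (4 genes). They were taken by name from a gene count table of 54261 rows, in which all 26 had a row. The table comes from TPC-1, a cell line of human papillary thyroid cancer. The cells were grown for 48 h together with PMN-MDSCs, polymorphonuclear myeloid-derived suppressor cells, which are immature neutrophil-like cells that restrain T cells (6 coculture libraries), or were left without them (4 control libraries). miRNA-seq was done with the same groups, in 6 coculture and 4 control libraries. The labels do not say how the cells were kept together, where the PMN-MDSCs came from or whether they were removed before RNA was extracted. They also do not say that libraries of a group came from different cultures. The p-values therefore cover the spread between the libraries at hand, which may be technical.

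Animal cells build cholesterol from acetyl-CoA through mevalonate, isoprenoid diphosphates, squalene and lanosterol. When the endoplasmic reticulum runs low in sterol, SCAP escorts the SREBP transcription factors to the Golgi, where they are cut and released to switch on the synthesis genes, while INSIG proteins hold SCAP back when sterol is plentiful. Oxysterols that build up with excess cholesterol activate the LXR nuclear receptors, which switch on the exporters ABCA1 and ABCG1 and the ubiquitin ligase MYLIP. Both arms are active in most cell types, and ABCG1 is known as an exporter of cholesterol-laden macrophages.

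RNA-seq totals ran from 40237801 to 48197608 counts. Read counts are given as CPM, the count scaled to a common library total after TMM normalisation. A log2 fold change is coculture minus control from edgeR's quasi-likelihood test over 15629 genes, with its standard error (SE). A call needs a Benjamini-Hochberg adjusted p under 0.05. Of the thyroid and epithelial markers, PAX8 stood at 625 ± 107 CPM in coculture and 508 ± 11.2 CPM in controls (SD, n = 6 and 4), and KRT8 and KRT18 were abundant as well. NKX2-1, TSHR and SLC5A5, which define the differentiated thyroid cell, were at 0 counts in all 4 controls and held at most 4 counts over the 6 coculture libraries. Fibroblast markers summed to 148 CPM in coculture 1, 3.42 to 9.40 CPM in the other coculture libraries and 3.78 to 6.97 CPM in controls. Coculture 1 and 2 were known from earlier results to stand apart from the other libraries, and the fold changes without them follow below.

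No gene of the set passed the test. Of the 26 genes, 25 were expressed well enough to be tested, and edgeR called 0 of them higher and 0 lower in coculture, where it called 1.14% of all genes higher and 0.186% lower. At an unadjusted p under 0.05, 2 genes were higher (MVD and FDPS) and 0 lower, against 6.07% and 3.58% of all genes. DESeq2 also called 0 genes, with 2 higher at an unadjusted p under 0.05 (6.74% of all genes), and limma-voom called 0, with 4 (5.53% of all genes). For 0 of the 25 genes did the coculture and control values separate without overlap, which occurred in the higher direction for 2.45% and in the lower direction for 1.17% of all genes. The fold changes were positive for 22 and negative for 3 genes, with a median of 0.176, while 51.7% of all genes were positive with a median of 0.00818. Without coculture 1 there were 23 positive genes, a median of 0.184 and 0 calls. The median was 0.325 when control 2 was left out, 0.117 without control 3 and 0.11 without coculture 1 and 2. The 95% interval lay within 1 log2 unit of 0, a doubling or halving, for 23 of the 25 genes. TM7SF2, with an upper bound of 1.39, and ABCA1, with 1.05, were the exceptions.

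For some genes the difference rested on coculture 1 and 2. Without them 0 genes were called, and the fold change came closer to 0 in 16 of the 25 genes and moved by over 1.5 times in size in 14. FDFT1, the squalene synthase, gave 0.02, MVK 0.02 and SREBF2 0.07, where all libraries gave 0.25, 0.17 and 0.29. MVD was at 0.22, FDPS at 0.14, INSIG1 at 0.16, MYLIP at 0.11, NR1H3 at 0.06 and EBP at 0.06. TM7SF2 and STARD4 turned negative, at -0.21 and -0.05, while PMVK was at -0.11, SCAP at -0.18 and NSDHL at -0.0038. ABCA1, at 0.55, SQLE, at 0.31, and LSS and HMGCS1, each at 0.30, kept positive values of that size without these libraries.

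**Figure D1:**
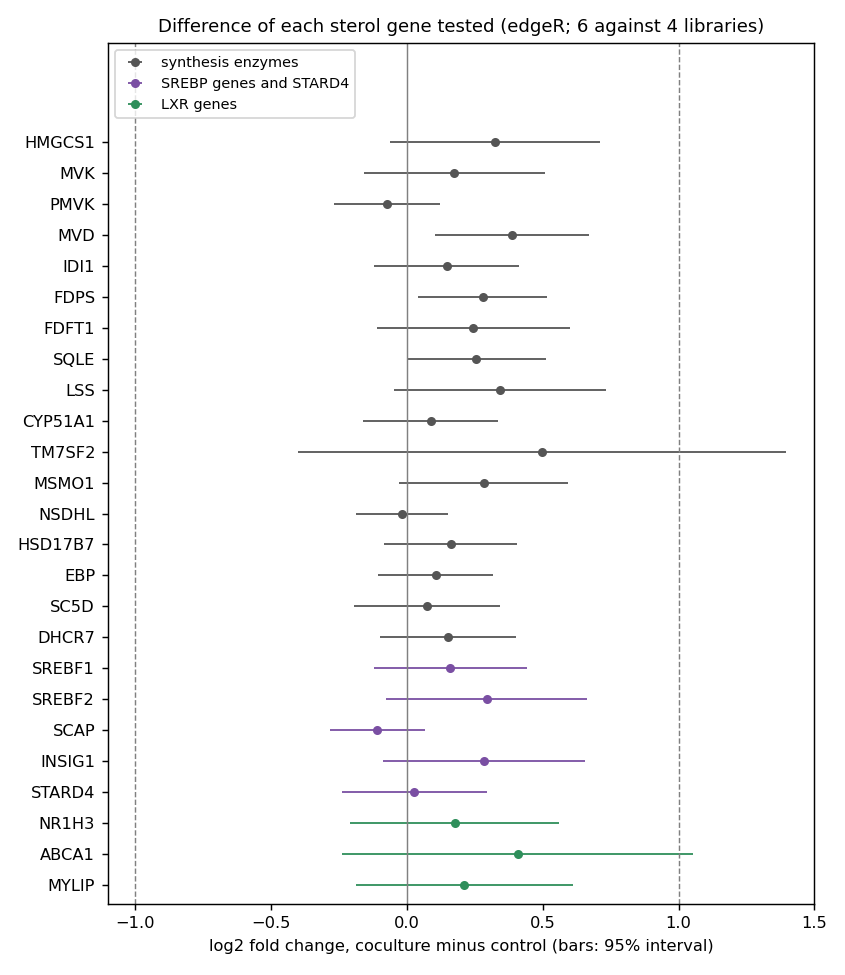
Log2 fold change (horizontal axis, coculture minus control) of the 25 sterol genes tested, with its 95% interval as a bar and a colour for each functional group. The points for 22 genes lie right of 0, and the bars of TM7SF2 and ABCA1 alone reach past the dashed line at 1.

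The first enzymes lead from acetyl-CoA to farnesyl diphosphate. HMGCS1, which makes HMG-CoA, ran from 53.4 to 74.2 CPM in coculture, with a median of 61.4, against 49.2, 74.1, 37.7 and 39.4 CPM in controls 1 to 4. Every coculture library thus lay above 3 of the controls, and control 2 was level with the highest coculture library. The log2 fold change was 0.32 ± 0.18 (edgeR adjusted p = 0.600). It was 0.573 without control 2 (adjusted p = 0.0842, within a range of 0.0842 to 0.893 over 17 alternatives).

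MVD, the decarboxylase that yields isopentenyl diphosphate, ran from 85.9 to 127 CPM in coculture, with a median of 89.2, against 72.5, 88.8, 67.0 and 71.5 CPM in controls. Coculture 1 and 2 were the highest of all libraries, and the lowest coculture values lay just under control 2. Its log2 fold change of 0.39 ± 0.13 had the smallest edgeR adjusted p of the set, 0.284. MVK and PMVK, the kinases of the preceding steps, gave 0.17 ± 0.15 and -0.07 ± 0.09. PMVK was steady in coculture, at 83.9 ± 3.18 CPM, beside 88.2 ± 11.9 CPM in controls (SD, n = 6 and 4).

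IDI1, the isomerase of isopentenyl diphosphate, stood at 64.2 ± 9.61 CPM in coculture and 58.0 ± 6.83 CPM in controls, a log2 fold change of 0.15 ± 0.12. FDPS, which builds farnesyl diphosphate for sterols and for protein prenylation, ran from 300 to 431 CPM in coculture, with a median of 323, against 278, 312, 259 and 275 CPM in controls. Its groups overlapped only where coculture 4, 5 and 6 lay below control 2. The log2 fold change was 0.28 ± 0.11 (edgeR adjusted p = 0.399). Per kilobase of transcript FDPS had the highest level of the set, 222 CPM per kb in coculture and 183 in controls.

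**Figure D2:**
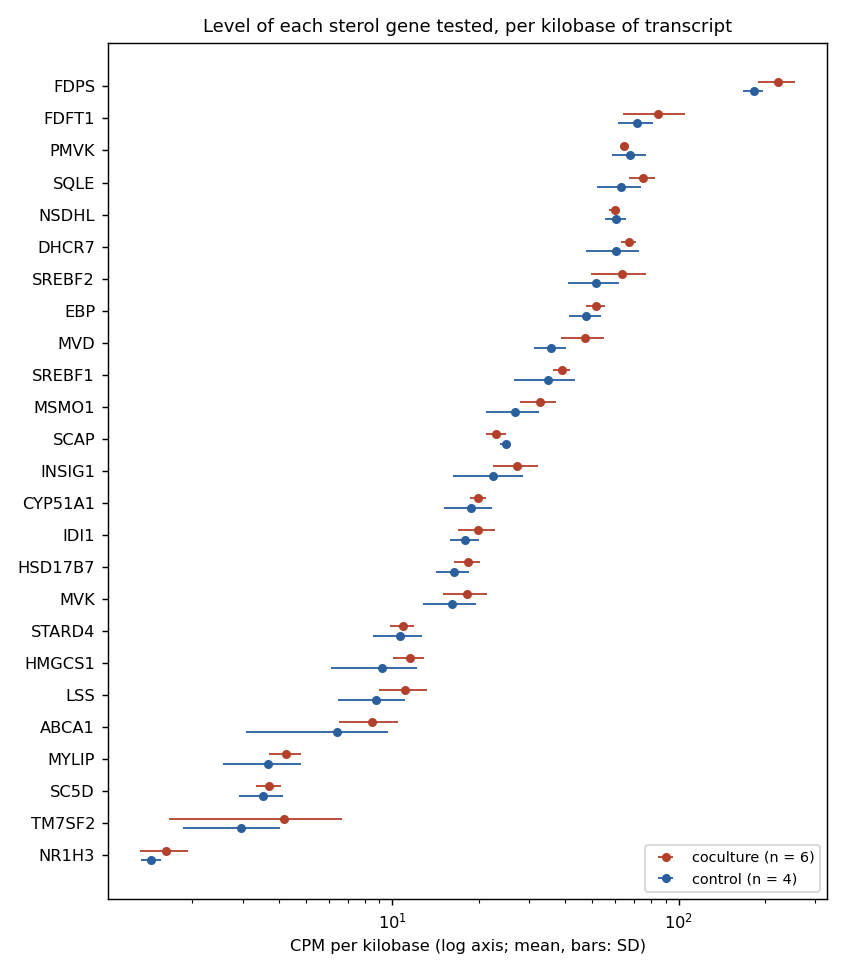
Level of each sterol gene tested, as mean CPM per kilobase of transcript on a log axis, with the SD over 6 coculture (red) and 4 control (blue) libraries. FDPS stands alone at the top with 222 CPM per kb in coculture and 183 in controls, NR1H3 is lowest with 1.62 in coculture and 1.44 in controls, and the red and blue bars of a gene lie close together relative to the spread between genes.

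The next enzymes make squalene and close it into lanosterol. FDFT1, the squalene synthase, ran from 199 to 358 CPM in coculture, with a median of 225, against 224, 245, 184 and 188 CPM in controls. Coculture 1 and 2 alone were above every control. Its log2 fold change was 0.25 ± 0.16. SQLE, the epoxidase that is a control point of the pathway, stood at 224 ± 23.5 CPM in coculture and 188 ± 33.2 CPM in controls, a log2 fold change of 0.26 ± 0.12 (edgeR adjusted p = 0.517). LSS, the cyclase that forms lanosterol, gave 0.34 ± 0.18, from 40.4 ± 7.59 CPM in coculture and 31.8 ± 8.37 CPM in controls. The deposited row of LSS lies on a scaffold outside the numbered chromosomes, so its count may hold only part of its reads.

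After lanosterol, methyl groups and double bonds are removed or moved in a chain of steps. TM7SF2, a sterol reductase of that chain, ran from 2.90 to 12.2 CPM in coculture, with a median of 4.79, against 6.20, 6.25, 2.86 and 3.61 CPM in controls. Coculture 1 and 2, at 11.3 and 12.2 CPM, stood far above the other 8 libraries, and the other coculture libraries lay within the control range. The log2 fold change of 0.50 ± 0.41 (edgeR adjusted p = 0.742) was the largest of the tested genes, and its adjusted p was 0.767 at the negative value without coculture 1 and 2 (within 0.413 to 0.973 over the alternatives). TM7SF2 overlaps VPS51 on the same strand, which held 41071 counts against 2575 for TM7SF2, and reads of the overlap cannot be separated.

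MSMO1, which oxidises the methyl groups, gave a log2 fold change of 0.28 ± 0.14 from 73.7 ± 10.6 CPM in coculture and 60.6 ± 12.8 CPM in controls. CYP51A1, the lanosterol demethylase, stood at 64.0 ± 3.91 CPM in coculture and 60.2 ± 11.5 CPM in controls. NSDHL, a dehydrogenase of the same stretch, stood at 101 ± 4.62 CPM in coculture and 102 ± 8.89 CPM in controls, and its 95% interval ran from -0.18 to 0.15. Fold changes of the remaining late enzymes were 0.16 ± 0.11 for HSD17B7, a ketosteroid reductase, 0.11 ± 0.10 for EBP, the sterol isomerase, and 0.07 ± 0.12 for SC5D, the sterol desaturase. DHCR7, the reductase of the last step, stood at 184 ± 11.1 CPM in coculture and 166 ± 34.9 CPM in controls, and gave 0.15 ± 0.12. The edgeR adjusted p of these 7 genes ran from 0.564 for MSMO1 to 0.963 for NSDHL.

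Of the SREBP genes, SREBF2 had the higher level per length, 63.3 CPM per kb in coculture and 51.6 in controls, beside 39.1 CPM per kb in coculture and 35.0 in controls for SREBF1. SREBF2, which encodes the SREBP that acts mainly on sterol genes, ran from 293 to 486 CPM in coculture, with a median of 333, against 344, 358, 248 and 244 CPM in controls. Coculture 1 and 2 were the highest libraries and controls 3 and 4 the lowest, while coculture 3, 4 and 6 lay below controls 1 and 2. The log2 fold change was 0.29 ± 0.17 (edgeR adjusted p = 0.616). SREBF1, whose products act on fatty acid and sterol genes, stood at 196 ± 13.4 CPM in coculture and 175 ± 42.0 CPM in controls and gave 0.16 ± 0.13. The wide control spread came from control 2 at 231 CPM and control 3 at 137 CPM. SREBF1 overlaps RAI1 on the other strand, as MVK does MMAB and STARD4 does CAMK4. The overlapping gene held 30898 counts against 80147 for SREBF1, 13119 against 18988 for MVK and 6724 against 24890 for STARD4. Whether counting used strand is not stated in the labels.

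INSIG1, the retention protein and itself a classical SREBP target, ran from 72.9 to 113 CPM in coculture, with a median of 78.8, against 70.9, 96.0, 56.2 and 55.0 CPM in controls. Only coculture 2 was above control 2, and every coculture library was above controls 1, 3 and 4. The log2 fold change was 0.28 ± 0.17 (edgeR adjusted p = 0.637). SCAP, the escort, had the lowest value of the set, -0.11 ± 0.08, from 98.6 ± 8.23 CPM in coculture and 106 ± 4.70 CPM in controls. STARD4, which carries cholesterol between membranes, gave 0.03 ± 0.12.

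Upstream of SREBF2, the 250 bases before the RefSeq start (GRCh38.p14, chr22:41832855-41833104, plus strand) are shown, as SREBF2 is known to act on its own promoter. They hold the only exact match to TCACNCCAC, a form of the sterol regulatory element, found in the promoters searched. Other forms of the element and inexact matches were not searched, so the other genes may carry them. Capitals mark the element, 133 bases before the start, and a CCAAT box read on the other strand, 106 bases before it.
SREBF2: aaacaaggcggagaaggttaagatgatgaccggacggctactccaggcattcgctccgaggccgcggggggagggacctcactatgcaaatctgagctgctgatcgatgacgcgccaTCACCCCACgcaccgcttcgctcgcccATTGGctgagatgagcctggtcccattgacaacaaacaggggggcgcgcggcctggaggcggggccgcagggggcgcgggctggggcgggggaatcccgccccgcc
Promoter windows of 300 bases (250 before and 50 after the start) were matched for 23 of the 26 genes, in 31 windows. The element TCACNCCAC, searched on both strands like every motif here, was in 3.23% of these windows and 1.13% of all 35116. CCAAT, the box bound by NF-Y, which works with SREBPs, was in 64.5% and 34.6%, CACGTG, the E-box, in 19.4% and 7.26%, and GGGCGG, the Sp1 box, in 87.1% and 45.0%. Matches of different motifs were counted separately and may overlap. A match describes letters and no measured binding.

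miR-33a and miR-33b lie within the SREBF2 and SREBF1 genes and are known to target ABCA1, so the miRNA-seq libraries bear on both arms. Their mature sequences are given as deposited, which is also their RefSeq form, with the seed (bases 2 to 8) in capitals. Both 5p arms share 1 seed, and the 3p arms differ from it and from each other.
miR-33a-5p: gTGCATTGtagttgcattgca
miR-33b-5p: gTGCATTGctgttgcattgc
miR-33a-3p: cAATGTTTccacagtgcatcac
miR-33b-3p: cAGTGCCTcggcagtgcagccc
In RefSeq (GRCh38.p14) miR-33a-5p lies at chr22:41900949-41900969 on the plus strand, inside the SREBF2 span of the deposited table (chr22:41833079-41907308), and miR-33b-5p at chr17:17813897-17813916 on the minus strand, inside that of SREBF1 (chr17:17811349-17837017).

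Of the 4 arms, 3 were tested and edgeR called 0 higher and 0 lower, against 1.13% and 0.125% of the 797 miRNAs tested. At an unadjusted p under 0.05 the count was also 0 in both directions, where 4.02% of miRNAs were higher and 7.4% lower. miR-33a-5p ran from 10.8 to 18.2 CPM in coculture, with a median of 14.7, against 13.8, 15.1, 19.3 and 14.4 CPM in controls. The ranges overlap almost fully, and the log2 fold change was -0.10 ± 0.18 (edgeR adjusted p = 0.824). Its passenger arm miR-33a-3p was at 8.12 ± 2.42 CPM in coculture and 6.10 ± 3.28 CPM in controls (0.42 ± 0.36). miR-33b-3p was lower in coculture 1 and 2, at 14.4 and 16.1 CPM, than in any other library, and gave -0.03 ± 0.28. miR-33b-5p, with 18 counts in the 6 coculture and 17 in the 4 control libraries, was too rare to be tested.

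Of 20 other miRNAs listed for a known link to sterol genes, 16 were tested, and edgeR called 0 of them. At an unadjusted p under 0.05, 0 were higher and 2 lower (miR-144-3p and miR-301b-3p), against 4.02% and 7.4% of all miRNAs. miR-301b-3p, one of several miRNAs reported to target ABCA1 or its partners, stood at 7.34 ± 1.68 CPM in coculture and 10.6 ± 0.721 CPM in controls (log2 fold change -0.52 ± 0.19, edgeR adjusted p = 0.322). miR-145-5p gave -0.81 ± 0.38. The values of miR-144-3p and miR-223-3p turned on control 4. miR-223-3p, which is abundant in neutrophils and other myeloid cells, ran from 34.9 to 82.3 CPM in coculture, with a median of 50.1, against 3.14, 3.18, 3.18 and 54.0 CPM in controls. Its log2 fold change of 1.76 ± 0.88 (edgeR adjusted p = 0.506) was 4.12 without control 4 (adjusted p = 5.83e-05, within 5.83e-05 to 0.800 over 14 alternatives). For miR-144-3p control 4 held 273 CPM, and every other library held at most 13.2 CPM.

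On the LXR side, NR1H3, which encodes LXR alpha, was the least expressed gene tested, at 3.13 ± 0.590 CPM in coculture and 2.77 ± 0.215 CPM in controls, a log2 fold change of 0.18 ± 0.18 (edgeR adjusted p = 0.794). It overlaps ACP2 on the other strand, which held 11077 counts against 1287 for NR1H3. ABCA1, the exporter that loads cholesterol onto apolipoprotein A-I, ran from 65.3 to 125 CPM in coculture, with a median of 91.9, against 99.9, 105, 40.6 and 37.5 CPM in controls. Controls 3 and 4 lay far below controls 1 and 2, and the coculture libraries lay between or around them. Its log2 fold change was 0.41 ± 0.30 (edgeR adjusted p = 0.697). MYLIP, the LXR-induced ubiquitin ligase, stood at 13.0 ± 1.64 CPM in coculture and 11.3 ± 3.42 CPM in controls, and its controls split the same way, at 13.9 and 14.5 CPM in controls 1 and 2 and 8.32 and 8.31 CPM in controls 3 and 4.

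The ABCA1 promoter is shown for the direct repeat through which LXR acts on this gene. The 250 bases before its RefSeq start (GRCh38.p14, chr9:104928156-104928405, minus strand) carry it, in capitals, 69 bases before the start.
ABCA1: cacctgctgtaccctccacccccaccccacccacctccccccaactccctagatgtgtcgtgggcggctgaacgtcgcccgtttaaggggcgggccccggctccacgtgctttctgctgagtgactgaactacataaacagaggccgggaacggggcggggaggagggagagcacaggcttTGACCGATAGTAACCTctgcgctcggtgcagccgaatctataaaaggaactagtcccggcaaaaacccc
The search form was AGGTCA repeated after 4 bases, on both strands, with at most 2 mismatches over the 12 fixed bases, and ABCA1 matched with 2 mismatches. It was found in 3.23% of the windows of these genes, ABCA1 alone, and in 2.34% of all windows.

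**Figure D3:**
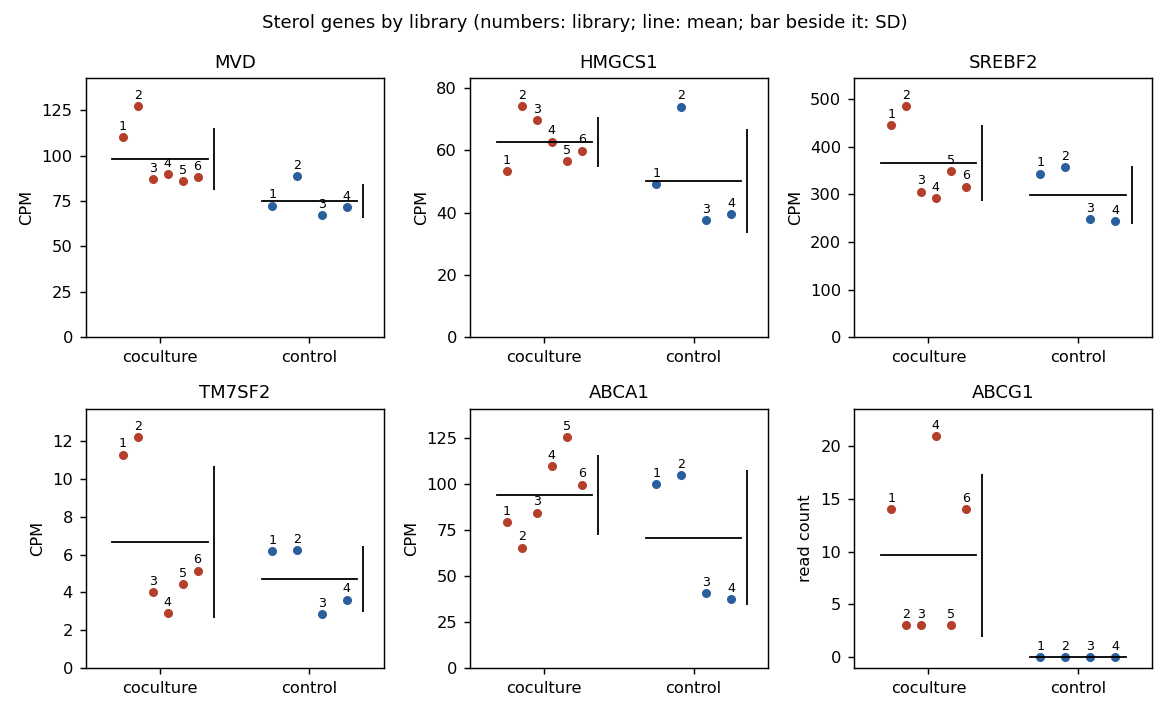
CPM of MVD, HMGCS1, SREBF2, TM7SF2 and ABCA1 and read counts of ABCG1 in every library, coculture left (red) and control right (blue), with the library number at each point, the mean as a line and the SD as a bar beside it. Coculture 1 and 2 lead for MVD, SREBF2 and TM7SF2, controls 3 and 4 are low for HMGCS1, SREBF2, TM7SF2 and ABCA1, and ABCG1 has reads in coculture libraries alone.

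ABCG1, the exporter that passes cholesterol to high-density lipoprotein, was the 1 gene of the set below the filter on low counts. It had 14, 3, 3, 21, 3 and 14 reads in coculture libraries 1 to 6 and 0 reads in all 4 controls. Every coculture library thus lay above every control, at very low counts, which was true of 0.658% of the 14441 rows of the table that had a read but failed the filter. The coculture level was 0.228 ± 0.184 CPM (SD, n = 6), with a range from 0.0632 to 0.499 CPM. Its mean was 3.27-fold the floor of 3 counts per control library, 0.0697 CPM. That ratio holds for the mean alone and rests on the libraries with 14 and 21 reads. The coculture libraries with 3 reads were at the floor count itself, and the lowest level, 0.0632 CPM, was under 0.0697 CPM. An exact two-sided permutation test of the mean over the 210 arrangements of the libraries gave p = 0.0381. It was run for ABCG1 alone and is not corrected for the other genes. With no filter on low counts, ABCG1 entered the fit through its coculture reads alone, and edgeR gave an adjusted p of 0.0133 over all genes. Both p-values cover the libraries at hand, and ABCG1 stayed untested in the main fit.

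Markers of leukocytes and macrophages were also higher in coculture. Of 22 such markers 18 had a control mean under 1 CPM, and these, picked for that low control level, summed to 19.7 to 39.8 CPM in the coculture libraries and 0.899 to 1.19 CPM in the controls. All 22 markers summed to 282 to 380 CPM in coculture and 226 to 259 CPM in controls. CD53, TYROBP, MRC1, S100A8 and CSF3R had reads in coculture and 0 in all controls, while AIF1, FCGR3B and CXCR2 were at 0 in all 10 libraries. Of the 13 tested, 11 were called higher, among them LYZ, the lysozyme of myeloid cells, at 13.9 ± 2.17 CPM in coculture and 0.0860 ± 0.0783 CPM in controls (log2 fold change 7.28 ± 0.35, edgeR adjusted p = 8.38e-07). The other called markers were CYBB, CD14, ITGB2, S100A9, CSF1R, FCER1G and LCP1 with CD53, TYROBP and MRC1. Markers near 0 in the controls passed the filter on low counts only through the coculture libraries. The share of 11 in 13 is thus partly set by that filter. The calls of FCER1G, CSF1R, MRC1 and TYROBP were lost with a replicate block (edgeR adjusted p 0.145, 0.131, 0.116 and 0.0615). Coculture 5 and 6 have no control of the same number, so the difference under the block rests on libraries 1 to 4 of each group. The call of FCER1G was also lost without coculture 6 or control 1, 3 or 4, with an edgeR adjusted p of up to 0.127. CD68 and LAPTM5, which TPC-1 controls expressed at 89.1 and 142 CPM, were not called. The part of these cells in the ABCG1 reads was not tested. In bulk RNA, more cells of a type and more RNA per cell cannot be told apart.

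These marker values stand beside CYP27A1 too, and their part in it was not tested. CYP27A1 is a mitochondrial hydroxylase, expressed by macrophages among other cells, that turns cholesterol into an oxysterol able to activate LXR. It ran from 2.61 to 10.3 CPM in coculture, with a median of 6.07, against 0.0855, 0.371, 0.218 and 0.113 CPM in controls. All coculture libraries lay far above all controls, and its log2 fold change of 4.95 ± 0.49 passed the test (edgeR adjusted p = 0.000305, with 3.03e-26 to 0.0144 over 17 alternatives). It was the 1 call among 14 tested oxysterol and cholesterol ester genes. With controls this low, CYP27A1 passed the filter on low counts only through the coculture libraries. SULT2B1, a sterol sulfotransferase, stood at 1.38 ± 1.06 CPM in coculture and 0.640 ± 0.216 CPM in controls. It was above every control in coculture 1 and 2, at 2.45 and 3.01 CPM, and coculture 3 to 6 were within the control range, and the log2 fold change of 1.11 ± 0.52 was 0.13 without coculture 1 and 2. NCEH1, a cholesterol ester hydrolase, gave -0.22 ± 0.13, and CAV1, the caveolar coat protein, -0.15 ± 0.09. CH25H, the hydroxylase that makes another oxysterol, had 2 reads in coculture and 1 in controls.

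The neighbouring lists held no other call. Among 13 tested genes of the remaining sterol synthesis and uptake steps, edgeR called 0 higher and 0 lower, and 6 were positive. NPC1, which moves cholesterol out of lysosomes, stood at 517 ± 29.7 CPM in coculture and 592 ± 69.2 CPM in controls (log2 fold change -0.20 ± 0.09, edgeR adjusted p = 0.476), and TMEM97, a partner of NPC1, gave -0.33 ± 0.20, and -0.11 without coculture 1 and 2. C14orf1, a scaffold of the methyl removal step, gave 0.13 ± 0.10. Of 12 tested isoprenoid genes 0 were called and 8 were negative. ICMT, which methylates prenylated proteins, stood at 230 ± 27.1 CPM in coculture and 296 ± 15.3 CPM in controls, with no overlap between the groups, and its log2 fold change of -0.36 ± 0.09 missed the threshold (edgeR adjusted p = 0.107, and 0.0209 with DESeq2, within 0.0209 to 0.388 over 17 alternatives).

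Of 14 tested SREBP processing genes 0 were called and 9 were negative. TRIB1, a pseudokinase linked to lipid synthesis, stood at 15.5 ± 5.87 CPM in coculture and 9.06 ± 1.20 CPM in controls, without overlap (log2 fold change 0.77 ± 0.24, edgeR adjusted p = 0.230, and 0.0419 without coculture 1 and 2, within 0.0419 to 0.541 over 17 alternatives). ERLIN1 and RNF139, both of the machinery that degrades sterol regulators, gave -0.18 ± 0.09 and 0.12 ± 0.10, and INSIG2, the relative of INSIG1, 0.36 ± 0.18, with 0.12 without coculture 1 and 2. Of 18 tested fatty acid genes under SREBP 0 were called, with MID1IP1 at 0.26 ± 0.10, ACACB at 0.27 ± 0.12 and GPAM at -0.33 ± 0.14. Of 12 tested LXR partners and further targets 0 were called, with RXRA, the partner receptor, at -0.27 ± 0.10, PLTP, a phospholipid transfer protein, at 0.32 ± 0.17 and NCOA1, a coactivator, at -0.17 ± 0.13. Without coculture 1 and 2 PLTP was at 0.08, MID1IP1 at 0.13, GPAM at -0.20, ERLIN1 at -0.10, NCEH1 at -0.09 and C14orf1 at 0.05. The median fold change was between -0.055 and 0.0387 in each of these 6 lists, beside 0.176 over the 25 sterol genes.

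The control libraries took a similar order in most of these genes. The order of libraries was noticed after the values were seen and is a description. Controls 3 and 4 were the lowest controls for 20 of the 25 genes (80%), against 29.2% of all genes tested, and control 2 was the highest control for 20 as well, against 23.4% of all genes. In 17 of the 25 genes (68%) every coculture library lay above both controls 3 and 4, which held for 9.67% of all genes. Coculture 2 was the highest coculture library in 15 genes (60%), against 21.2% of all genes. Relative to the control mean, the median of the 25 genes was 0.30 on the log2 scale in coculture 2, 0.21 in coculture 3 and between 0.03 and 0.12 in the other coculture libraries, beside 0.06, 0.29, -0.20 and -0.22 in controls 1 to 4. Over all genes with a control mean of at least 1 CPM these medians lay between -0.03 and 0.00 in coculture and control libraries alike.

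The ratio of the highest to the lowest control was larger than that of the higher to the lower group mean in 24 of the 25 genes, MVD included (1.33 against 1.31). The share over all genes was not counted. Single libraries vary more than means of libraries, so this count alone does not show a trait particular to the sterol genes, which was not tested. FDPS, with 1.20 against 1.21, was the exception. ABCA1 had the widest controls, 2.80-fold from lowest to highest, against a ratio of means of 1.33. The median ratio of the highest to the lowest library was 1.398 in coculture and 1.481 in controls for the sterol genes, and 1.497 in coculture and 1.274 in controls for all genes of at least 1 CPM. In the fatty acid list controls 3 and 4 were the lowest controls in 14 of 18 genes (77.8%), and in the isoprenoid list in 2 of 12 (16.7%). The other neighbouring lists lay between these, from 33.3% to 57.1%. Control 2 was the highest control in 8 of 18 fatty acid genes (44.4%) and 4 of 12 isoprenoid genes (33.3%). What set controls 3 and 4 apart was not tested.

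**Figure D4:**
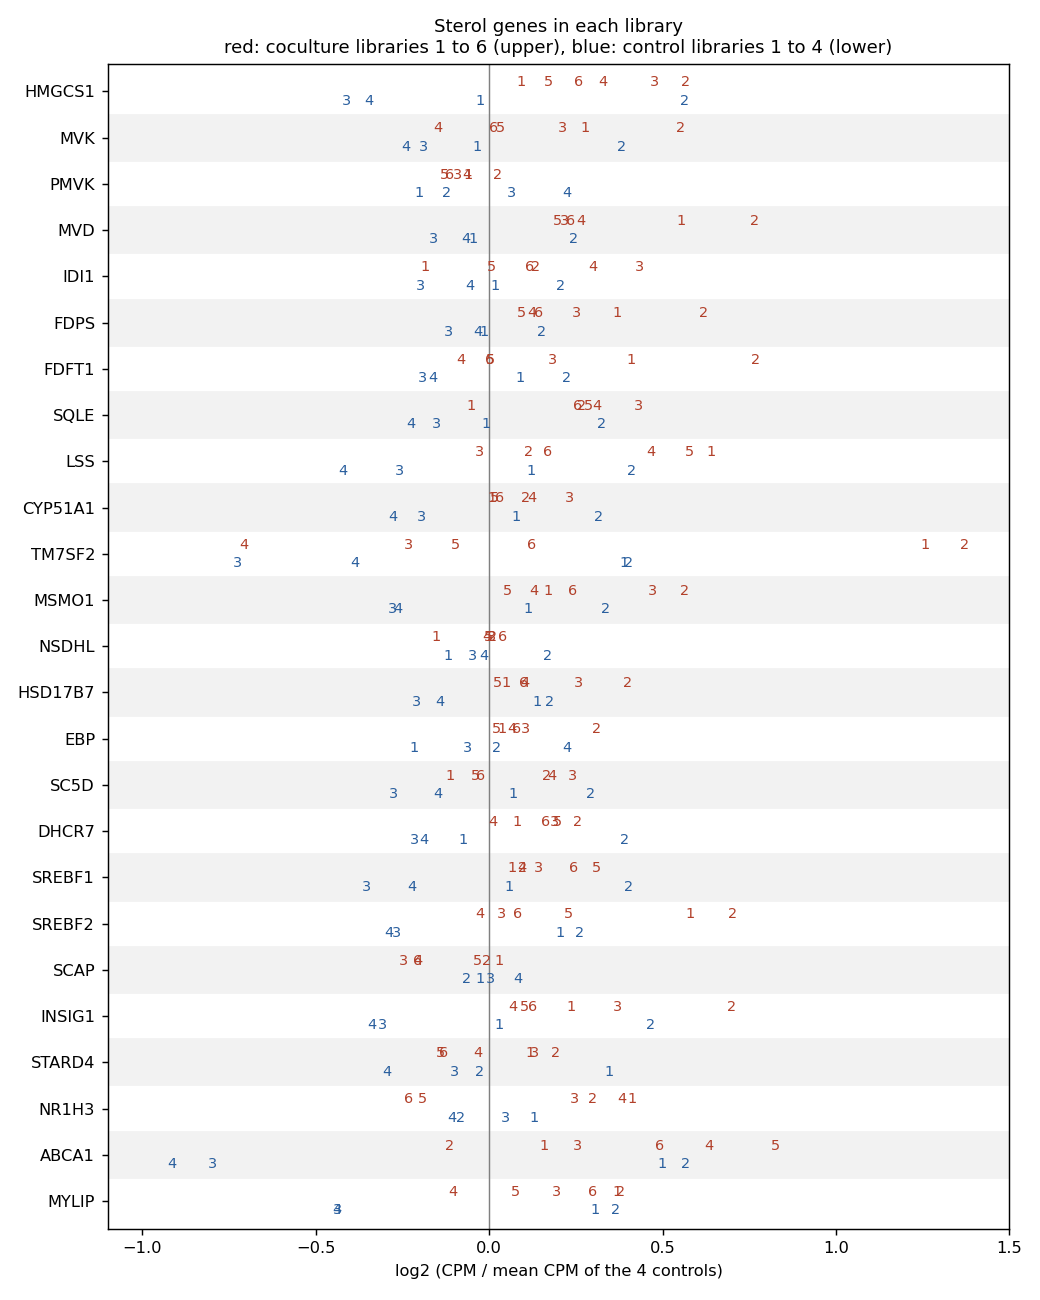
Each of the 25 sterol genes in each library, as log2 of its CPM over the mean of the 4 controls (horizontal axis), with the library number printed at its value, coculture in red in the upper line of a row and control in blue in the lower line. The blue 3 and 4 stand left and the blue 2 right in most rows, for 20 of 25 genes each, and the red numbers mostly lie between or right of them.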

How the data were processed

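The authors deposited read counts, 1 table of RNA-seq counts per gene and 1 of miRNA-seq counts per mature miRNA, raw whole numbers with no normalization. The submitters' processing notes name BWA, HISAT2 2.0.4 and GRCh38.p10 without roles. The counter, the annotation and the use of strand were not given in the sources used here. All value columns were used, so 0 were unused. Groups come from the sample titles, with 6 coculture and 4 control libraries per assay. miRNA-seq totals ran from 3971608 to 5895539 counts, and count floors cover counting error only, while the 95% intervals of fold changes come from the fit and include the spread between libraries. No library pair agreed within sampling noise by a chi-square of counts, so each was counted once.

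Counts were tested in R 4.3.3 with edgeR 4.0.16 (TMM, filterByExpr by group, robust quasi-likelihood test, Benjamini-Hochberg over all features of an assay, threshold 0.05). SE is the size of the log2 fold change over the square root of F. Alternatives were RLE, DESeq2 1.42.0, limma 3.58.1 (voom), no filter, 10 counts in 4 libraries, a replicate block, omission of coculture 1 and 2, and of each library in turn. Scripts were tested on simulated data. Levels between genes use the transcript length of the deposited table.

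The genes and lists were chosen with earlier results of these data known. Named are all 26 genes, up to 4 genes of each other list by adjusted p, the 3 most abundant tested genes and every called gene of each marker list, all 4 miR-33 arms and up to 4 of the other miRNAs. 3 genes that the rule picked are not reported here. S100A8, CSF3R, AIF1, FCGR3B, CXCR2, CH25H, NKX2-1, TSHR and SLC5A5 were named after their values were seen. Promoter and miRNA positions are from RefSeq (GRCh38.p14), and gene spans from the deposited table.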

Additional observations from a re-analysis of the deposited data

Results flagged for a closer look

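Each group of 4 or 6 libraries was examined for a single library far from the rest, and 16 of 150 groups held one, 2 of them among the 50 groups of the sterol genes. Chance gives about 1 in 20 groups where groups are independent. These groups share libraries, so 16 of 150 cannot be judged against that rate. NSDHL, the sterol dehydrogenase, was lowest in coculture 1 at 91.7 CPM, against 101.5 to 104.8 CPM in the other coculture libraries. EBP, the sterol isomerase, was highest in coculture 2 at 68.2 CPM, against 55.8 to 59.2 CPM.

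Among the neighbouring genes, FNTA, a prenyltransferase subunit, was highest in coculture 4 at 53.5 CPM. CAV1 was highest in coculture 4 at 282.7 CPM among coculture libraries and lowest in control 1 at 226.2 CPM among controls. Of the leukocyte markers, CD53 and LYZ were lowest in coculture 2, at 0.547 and 9.79 CPM. LYZ was highest among the controls in control 4, at 0.203 CPM, and S100A9 had its 1 control read in control 1 (0.0214 CPM).

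The fibroblast markers stood out in coculture 1, with COL1A1 at 67.0 CPM against 1.59 to 5.73 CPM in the other coculture libraries, LUM at 6.35 CPM and PDGFRB at 3.05 CPM. Of the miRNAs, miR-33b-3p was highest among the controls in control 2 at 37.9 CPM, and miR-145-5p highest among coculture libraries in coculture 4 at 7.84 CPM. miR-144-3p and miR-223-3p were highest among the controls in control 4, at 273.3 and 54.0 CPM.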

How the results depend on the processing

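Of 425 alternative fold changes of the 25 sterol genes, 416 kept their sign and 9 changed it, and none passed the threshold in any of them, with 0.0842 as the lowest adjusted p. ABCG1, which entered that fit through its coculture reads alone, was the 1 sterol gene called with no filter. Genes called higher (178) were 333 with DESeq2 and 112 to 204 with 1 library left out, and genes called lower (29) were 106 with DESeq2, 112 without coculture 1 and 2, and 4 to 36 with 1 library left out. Calls in the neighbouring lists (1) were 2 with DESeq2, which added ICMT, 2 without coculture 1 and 2, which added TRIB1, and 1 to 2 with 1 library left out. miRNA calls (10) were 16 with DESeq2, 16 with no filter and 5 to 12 with 1 library left out.

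With the replicate block, in which coculture 5 and 6 do not add to the difference, 100 genes were higher, 10 lower and 0 sterol genes called. In that fit 8 of 25 sterol genes were higher at an unadjusted p under 0.05 (7.76% of all genes). The lowest edgeR adjusted p of the sterol genes was 0.108 (MVD), and their median fold change was 0.255. The numbers are not shown to pair the libraries: same-numbered libraries correlated at 0.386, -0.083, 0.253 and 0.174 in RNA-seq and at 0.369, -0.0337, 0.209 and 0.373 in miRNA-seq, and 4 of 8 and 5 of 8 libraries correlated best with their own number. Under the block LAPTM5 was at 0.0443, KRT18 at -0.0427 and miR-33a-5p at 0.0269.

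Other fold changes that turned their sign lay near 0 or rested on coculture 1 and 2. Without these 2 libraries TM7SF2 was at -0.21, STARD4 at -0.0525, LUM at -0.82, PDGFRB at -0.19 and KRT8 at 0.0619. LUM was at -0.0528 with limma-voom, and miR-33b-3p at 0.01823 with RLE, 0.01821 with DESeq2 and 0.0120 with no filter. With 1 library left out the ranges were -0.0582 to 0.0411 for NSDHL, -0.14 to 0.0111 for PMVK, -0.0048 to 0.18 for SC5D, -0.0593 to 0.16 for STARD4, -0.0622 to 0.0612 for KRT8, -0.0389 to 0.0849 for KRT18, -0.0725 to 0.0303 for LAPTM5, -0.39 to 0.57 for LUM, -0.18 to 0.16 for miR-33b-3p and -0.18 to 0.0299 for miR-33a-5p. The cause was not tested.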
